A study of Equus caballus with 93 samples.

Results

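Gene expression was measured by RNA sequencing of the cells in horse synovial fluid, and this account concerns 80 of the 15838 genes of the deposited table. These 80 members were the genes whose level differed widely between horses before surgery while the mean over horses moved little afterwards. They were chosen by the week 0 mean (at least 3 log2 CPM), the mean over libraries (at least 1 log2 CPM), the SD over the week 0 libraries (at least 1 log2 unit), and 2 shifts in mean of under 0.5 log2 units, week 2 against week 0 and the average of the later means, weeks 4 to 10, against week 0. CPM is a gene's reads scaled to a common library size, and 1 log2 unit is a doubling. The list was to hold at most 150 genes, and 80 met every criterion. The choice was among 6303 genes that met all criteria except the one on the SD, and 4 genes were to be left out by name.

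The libraries came from 16 horses aged 2 to 5 years, 7 mares and 9 geldings, each with an osteochondral fragment made surgically in 1 middle carpal joint, a model of osteoarthritis. The iPAAG arm (8 horses) received 2 mL of a 2.5% injectable polyacrylamide hydrogel in that joint at week 2, and the Control arm (8 horses) received 2 mL of buffered saline. Horses of both arms had the fragment, a sham operation of the opposite limb and exercise on 5 days per week from week 2 to week 10. Fluid was drawn before surgery (week 0) and every other week until week 10, and 12 groups of arm and week hold the 93 libraries. Whether the week 2 fluid preceded the injection is not stated.

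Synovial fluid cells are a mixture of macrophages, lymphocytes, occasional neutrophils and cells shed from the joint lining, and the mixture changes when a joint is inflamed. When the same animals are sampled again, the spread of a gene can be divided into a part that stays with the animal and a part that changes between its visits. In such bulk samples, fewer cells of a type and less RNA per cell cannot be told apart. The table names genes by Ensembl identifier, and 0 of the 15838 identifiers could be paired with a symbol. The members are therefore given by identifier, without roles or sequences, and the labelled cell type could not be checked against marker genes.

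The rule for the members used 70 libraries in which the log2 values of all genes had an SD of at least 2, called the library's spread below. These 70 libraries had a spread of 2.19 to 4.21 and 6076026 to 39916655 reads in genes, and they covered all 16 horses. The other 23 libraries, from 12 horses, had a spread of 1.20 to 1.90 and 1737741 to 12597216 reads in genes. The used libraries were unevenly spread over the groups. In weeks 0, 2, 4, 6, 8 and 10 they numbered 7, 7, 3, 4, 6 and 2 in the iPAAG arm and 8, 7, 7, 6, 7 and 6 in the Control arm. At week 0 the rule thus used 15 horses. The library of horse 14, in the iPAAG arm, had a spread of 1.65, and its values lay within the range of the other week 0 libraries for 77 of the 80 members.

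Before surgery, the distance between the highest and the lowest horse was 3.23 to 12.1 log2 units, with a median of 4.27, over the 80 members. The SD over the 15 horses was 1.00 to 2.70, with a median of 1.13, and the week 0 mean was 3.01 to 9.80 log2 CPM. These values chose the members and are a description without a test. The last members inside the limit were ENSECAG00000020041, with an SD of 1.01, and ENSECAG00000045968, with 1.00. The first genes outside it were ENSECAG00000034955, with 0.991, and ENSECAG00000000966, with 0.990.

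A pair of Control horses held most of the lowest values at week 0. Horse 11 had the lowest value of 33 members and horse 13 that of 20, and they were the horse farthest from the median for 30 and 24 members. The highest values were more widely spread over horses: iPAAG horses 7 and 3 had those of 14 and 11 members, and horses 11 and 13 those of 8 each. The week 0 library of horse 11 had the highest spread, 4.21, and 17431476 reads in genes, and that of horse 13 had a spread of 3.68 and 29443605 reads. Over the 15 horses, the correlation of a member's week 0 value with library spread had a median of -0.25 and was below -0.5 for 32 of the 80 members. Over all genes the median was -0.14, and 3001 of the 15838 genes were below -0.5. Of the 25 members called in the test of horses described below, 5 were below -0.5, and of the 55 others, 27 were. The part of library spread in the week 0 differences was not tested. In weeks 2 to 10, that test called 28 members with library spread as a covariate (10.53% of all genes) and 25 without it (10.51%). With horse 11 left out of the week 0 values, 22 members had an SD below 1, and with horse 13 left out, 23 did. When the rule was applied without the week 0 libraries of horses 11 and 13, it chose 39 genes, of which 21 were among the 80.

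**Figure D1:**
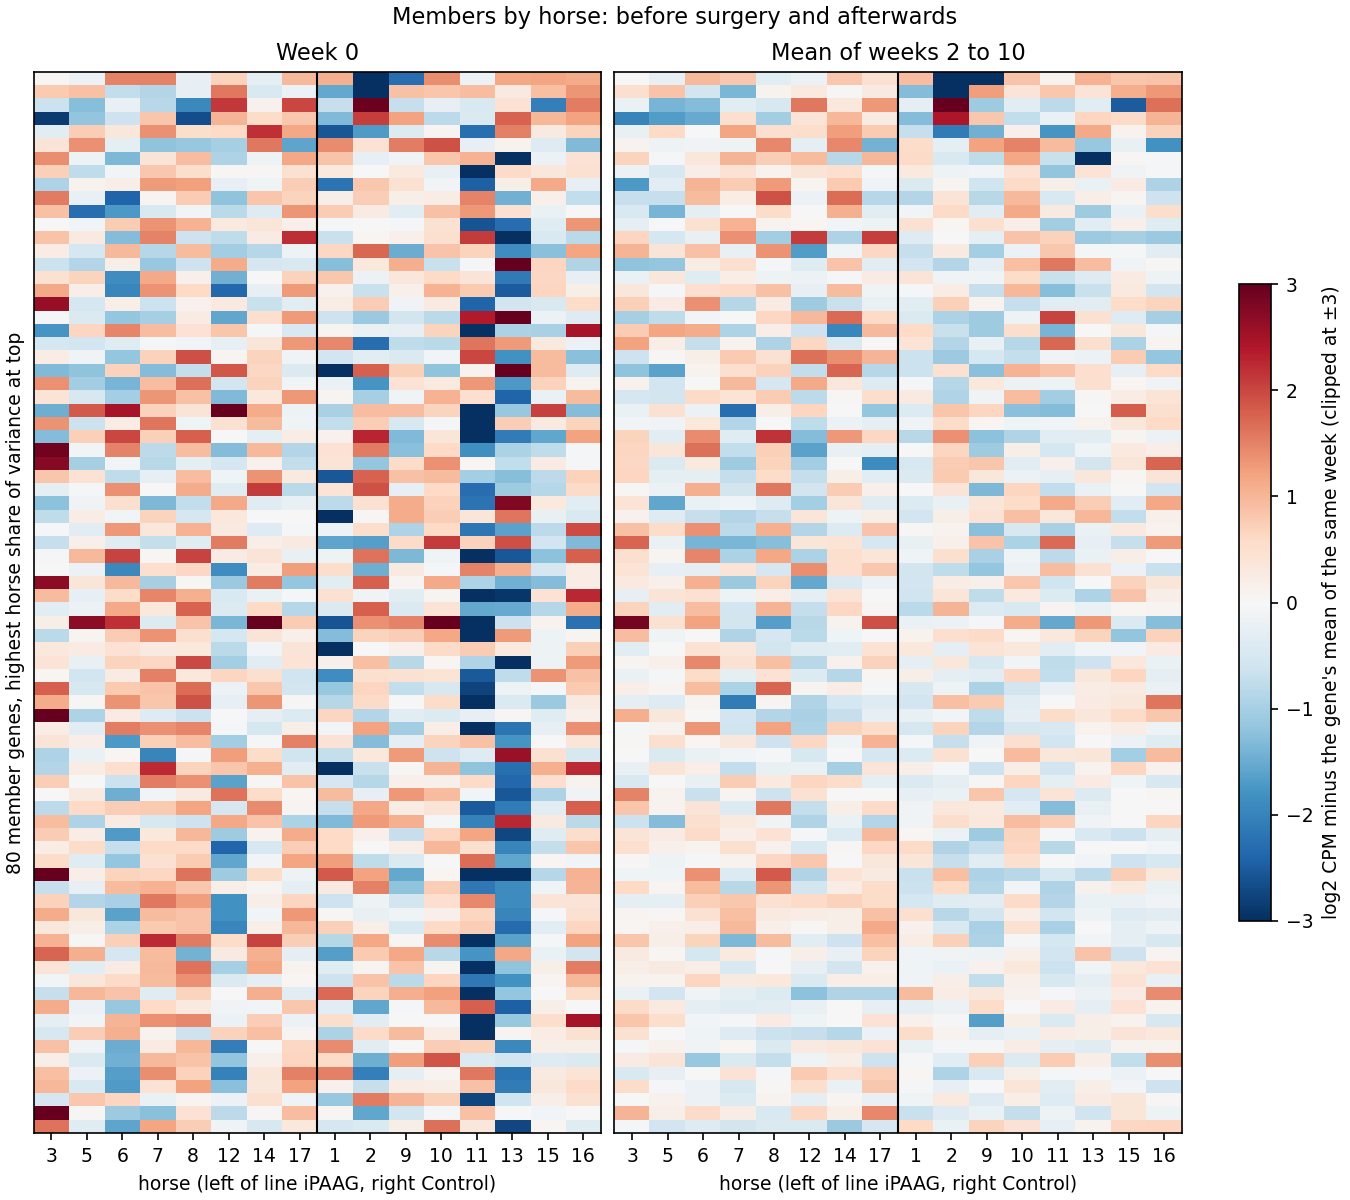
Each row is one of the 80 members, ordered by the share of its variance between horses in weeks 2 to 10, and each column is a horse, with the iPAAG horses left of the line and the Control horses right of it. Color gives log2 CPM minus the gene's mean of the same week, at week 0 (left; horse 14 is shown but was not used by the rule) and averaged over the used libraries of weeks 2 to 10 (right). The dark columns of horses 11 and 13 at week 0 are paler in the average of the later weeks, while the top rows keep their colors.

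The members had a higher median SD over horses than the genes that met the other criteria in every later week. It was 1.13, 0.81, 0.99, 0.88, 0.96 and 0.70 in weeks 0, 2, 4, 6, 8 and 10. The medians of the 6223 other genes, which met every criterion except the SD, were 0.32, 0.26, 0.29, 0.32, 0.31 and 0.22 in the same weeks. Of the 80 members, 23, 38, 29, 37 and 20 had an SD of at least 1 in weeks 2, 4, 6, 8 and 10. These were 28.75%, 47.5%, 36.25%, 46.25% and 25% of the members, against 28.0%, 28.6%, 31.5%, 32.8% and 21.4% of all genes. The means of single weeks moved more than the criteria on week 2 and on the later mean imply. The week 4 mean lay at least 0.5 log2 units from the week 0 mean for 40 members, and the week 10 mean for 46, with shifts of -1.31 to 1.28 and of -1.22 to 1.19.

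Whether a horse kept its level was tested in the 55 used libraries of weeks 2 to 10, whose spread between horses played no part in the choice. A limma moderated F test compared horses within arms after the mean of each arm and week was removed, with Benjamini-Hochberg adjustment over all genes. A gene with an adjusted p below 0.05 is called here. The test called 25 of the 80 members, or 31.3%, while 10.5% of all 15838 genes were called (1665 genes). Of the 6223 genes that met every criterion except the SD, 7.41% were called. The share of a gene's variance that lay between horses had a median of 23.9% over the members, 11.6% over those 6223 genes and 10.1% over all genes. The share is an estimate that falls below 0 when horses differ less than their repeated samples would give. It was at least 50% for 12 members, at least 75% for 6 and at least 90% for 4. The number of members called was 17 when libraries needed a spread of at least 3, where 5.03% of all genes were called, and 35 when week 2 was left out, where 12.5% were. Without horse 11 it was 18, with 8.10% of all genes called, and without horse 9 it was 30, with 14.6%. The same test called 15 of the 39 genes chosen without the week 0 libraries of horses 11 and 13.

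**Figure D2:**
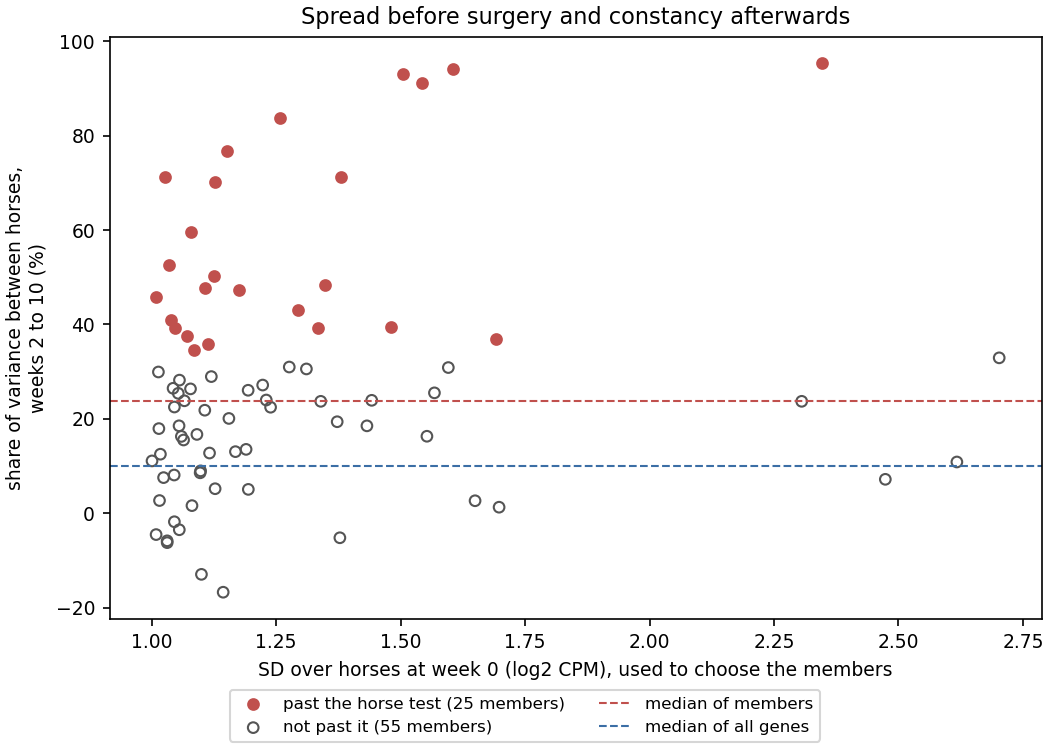
Each point is one of the 80 members, with the SD over horses at week 0 on the x axis and the share of its variance between horses in weeks 2 to 10, in percent, on the y axis. Filled points are the 25 members past the horse test and open points the 55 others; dashed lines mark the medians of the members (23.9%) and of all genes (10.1%). Of the 4 members with the highest SD, 1 lies above 90% and the other 3 are not past the test.

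ENSECAG00000034971 had the largest share of variance between horses, 95.3%, and 2 Control horses stood apart from the others throughout. Horse 2 had -4.27, -1.24, -0.64, -1.84, -1.84 and -0.36 log2 CPM in weeks 0 to 10. Horse 9 had 1.11, -0.97, 0.06, -0.74, -1.33 and -1.13 log2 CPM in the same weeks. In the used libraries of weeks 2 to 10 these 2 horses had -1.84 to 0.06 log2 CPM, from 4 to 22 reads, against 2.69 to 4.86 log2 CPM in 49 libraries of the other 14 horses. The 2 sets of libraries did not overlap. At week 0 the other 13 used horses had a lowest value of 3.16, a median of 4.47 and a highest value of 4.89 log2 CPM. The horse test gave an adjusted p of 2.75e-17 (limma). The horses were set apart after their values were seen, so the gap between them has no test of its own.

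The same gene was lower in the libraries of low spread. All 23 of them lay below the mean of their own horse's used libraries, by a median of 1.56 log2 units, and the other horses reached down to -0.22 log2 CPM there. The gap of horses 2 and 9 to the rest is therefore clear in the used libraries and narrower in the others. With all libraries in the test, the share between horses was at its lowest, 80.8%, and the gene was still called.

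ENSECAG00000023139 followed with a share of 94.2% (adjusted p 2.17e-16, limma), and its lowest values were those of 1 Control horse. Horse 2 had 0.12, -0.47, 0.77, 1.33, 0.82 and 0.19 log2 CPM in weeks 0 to 10. In the used libraries of weeks 2 to 10 horse 2 had -0.47 to 0.82 log2 CPM, against 2.55 to 6.26 log2 CPM in 51 libraries of the other 15 horses. The libraries of horse 2 did not overlap with the others, in the libraries of low spread either, where horse 2 had 1.33 and the others at least 3.22 log2 CPM. The order of the other horses was also kept in part. Horse 1 had 2.98 to 3.72 log2 CPM and horse 16 had 5.95 to 6.30 log2 CPM over the 6 weeks. Without horse 2 the share of variance between horses was 83.5%.

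ENSECAG00000033152 had a share of 93.1% (adjusted p 2.64e-15, limma), with a set of high horses rather than low ones. At week 0, horses 12 and 17 of the iPAAG arm had 7.30 and 7.18 log2 CPM, and horses 2 and 16 of the Control arm had 8.12 and 6.72. The other 11 used horses had 3.12 to 5.62 log2 CPM at week 0, with a median of 4.50. In weeks 2 to 10 the used libraries of these 4 horses had 6.16 to 9.28 log2 CPM, against 1.71 to 5.43 log2 CPM in 39 libraries of the other 12 horses. The 4 horses, named after their values were seen, came from both arms, and their libraries did not overlap with the rest. The lowest horse was horse 15 of the Control arm, with 3.12, 3.54, 3.28, 1.71, 2.67 and 2.13 log2 CPM in weeks 0 to 10.

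ENSECAG00000011673 had a share of 91.2% (adjusted p 1.83e-13, limma), and its horses formed a graded series rather than sets. Horse 2 was the highest, with 6.99, 7.52, 8.11, 6.54, 7.30 and 7.49 log2 CPM in weeks 0 to 10. Horse 1 kept between 3.39 and 3.99 log2 CPM. Horse 3 of the iPAAG arm had 2.04, 3.13 and 2.70 log2 CPM in its used libraries of weeks 0, 2 and 6. Horse 8, also of the iPAAG arm, did not keep its place. It had 2.25 log2 CPM at week 0 and 5.06, 4.25 and 3.42 log2 CPM in its used libraries of weeks 2, 4 and 8. All 23 libraries of low spread lay below the mean of their horse, by a median of 1.23 log2 units, and with all libraries in the test the share was 66.4%, still called.

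ENSECAG00000037980 had a share of 83.7% (adjusted p 5.48e-09, limma). At week 0 the Control horses 1, 2 and 11 were lowest, with 0.70, 1.58 and 1.02 log2 CPM, and the Control horse 13 was highest of the used libraries, with 4.78. In its used libraries of weeks 2 to 10, horse 2 had 0.30 to 1.65 log2 CPM, horse 11 had 0.91 to 2.11, horse 1 had 1.88 to 3.93 and horse 13 had 4.36 to 4.96. This gene was higher in the libraries of low spread. All 23 lay above the mean of their own horse, by a median of 1.91 log2 units, at 4.95 to 6.97 log2 CPM. With all libraries in the test the share fell to 26.9% and the adjusted p was 0.0516 (limma), so the difference between horses rests on the used libraries.

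ENSECAG00000048857 had a share of 76.7% (adjusted p 2.65e-07, limma). Among Control horses, horse 10 had 6.72 log2 CPM at week 0 and 6.50 to 7.01 in its used libraries afterwards, and horse 16 had 3.49 at week 0 and 2.72 to 3.68 afterwards. Horse 8 of the iPAAG arm had 3.67 log2 CPM before surgery and 7.17, 6.61 and 5.84 in weeks 2, 4 and 8. Horse 5 of the iPAAG arm had 6.16 log2 CPM before surgery, 3.66 at week 2, and 6.20, 5.24 and 4.97 in weeks 6, 8 and 10. Without horse 5 the share was 84.5%. The level after surgery was thus not in every animal steady, nor in every animal the level before it. All 23 libraries of low spread lay below the mean of their horse, by a median of 1.75 log2 units, and with all libraries in the test the share was 45.8% (adjusted p 0.000343, limma).

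**Figure D3:**
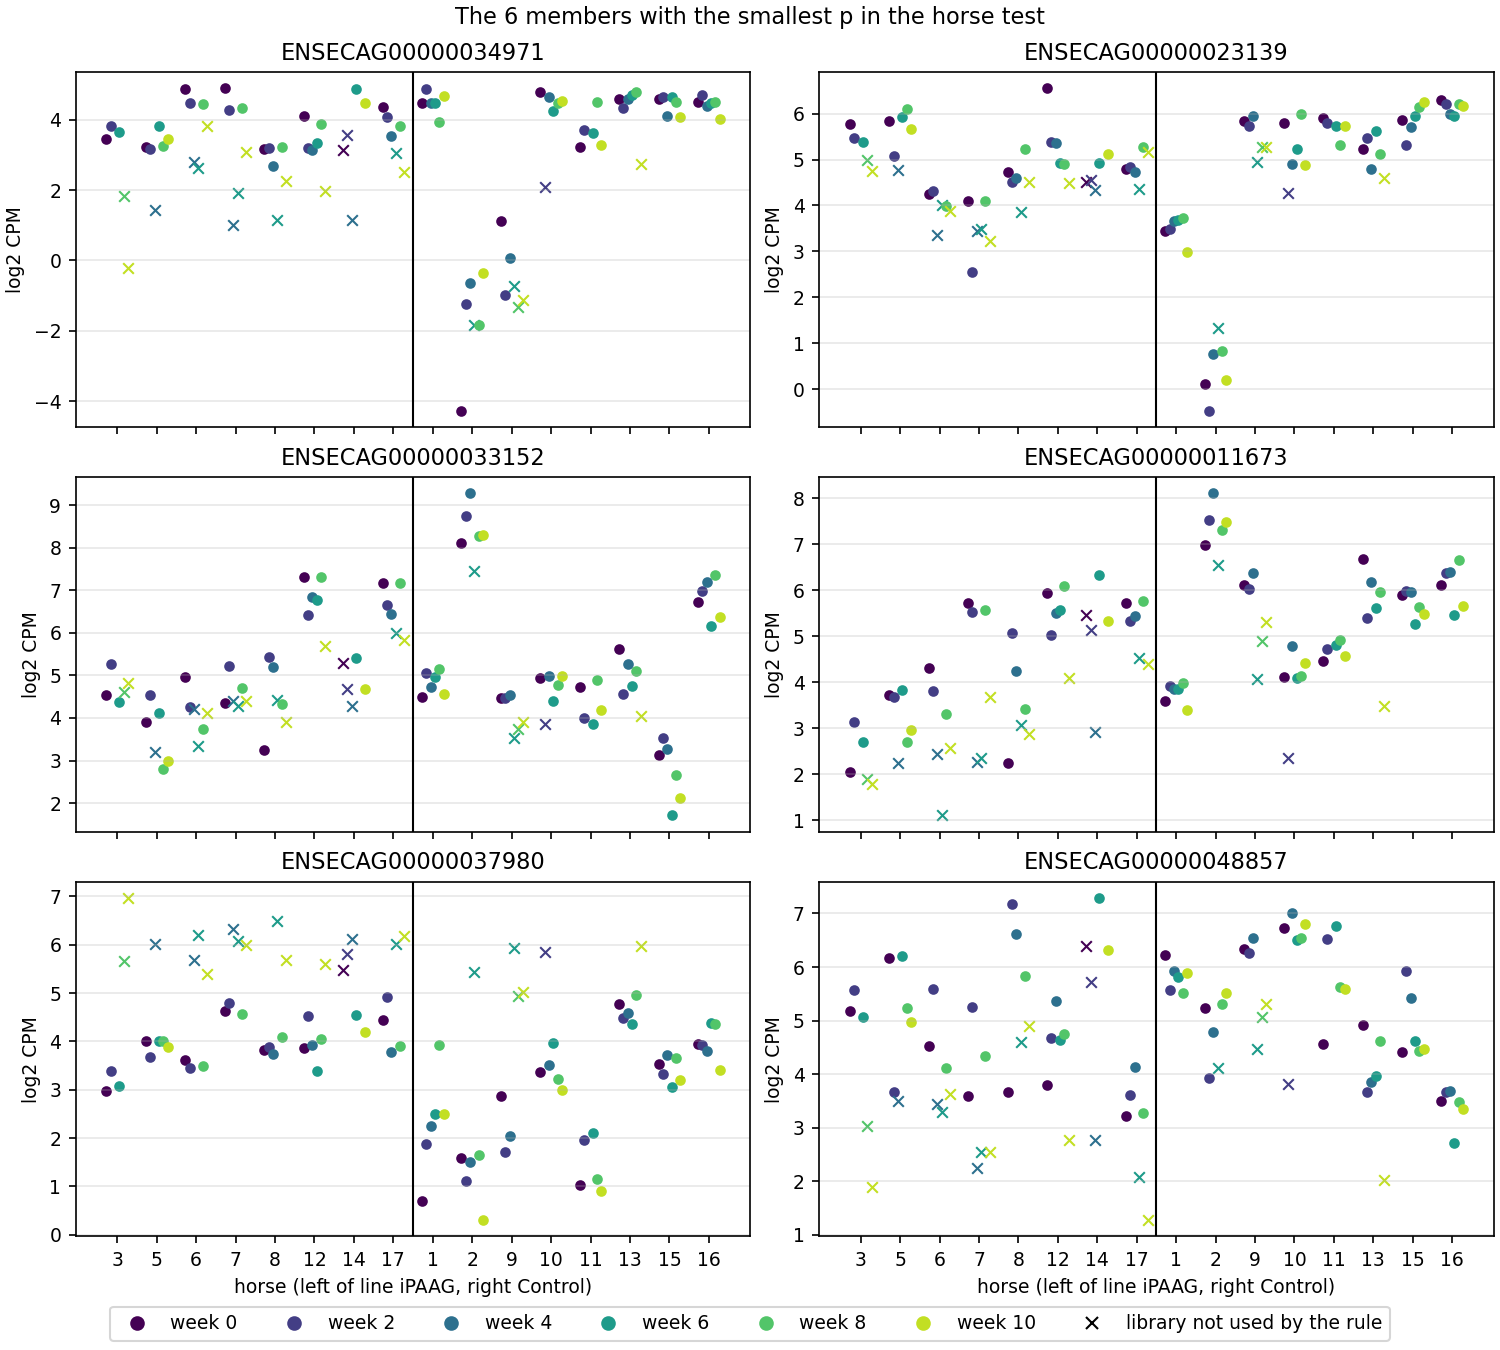
Log2 CPM of the 6 members with the smallest p in the horse test is plotted for each horse, with iPAAG horses left of the line and Control horses right of it; color gives the week and crosses mark the libraries that the rule did not use. Horses 2 and 9 lie apart in ENSECAG00000034971, horse 2 in ENSECAG00000023139 and horses 2, 12, 16 and 17 in ENSECAG00000033152. The crosses lie above the dots of the same horse in ENSECAG00000037980.

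The other 19 called members had shares of 34.6% to 71.2%, with a median of 45.9%. The highest of these were ENSECAG00000006717 and ENSECAG00000010665, with 71.2% each, and ENSECAG00000021009, with 70.1%, named here after their values were seen. The 55 members that were not called had shares of -16.7% to 32.9%, with a median of 16.3%. At the low end were ENSECAG00000021609, with -16.7%, and ENSECAG00000014658, with -12.9%. ENSECAG00000021609 was lowest in Control horse 13 at week 0, with 2.74 log2 CPM, and the same horse had 5.38, 4.69, 4.79 and 6.25 log2 CPM in weeks 2 to 8. ENSECAG00000014658 was highest in iPAAG horse 3, with 9.66 log2 CPM at week 0, 9.36 at week 2 and 6.14 at week 6. Its lowest used values came from other horses, 3.80 log2 CPM in Control horse 1 at week 2 and 3.94 in Control horse 9 at week 4.

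The other 3 members with the highest SD at week 0 had their lowest value in the same library, that of Control horse 11. ENSECAG00000017938 (SD 2.70) had 0 reads in Control horse 11 at week 0, which the table gives as -5.09 log2 CPM, and 6.55 log2 CPM in iPAAG horse 12. Horse 11 then had 2.60, 1.34, 4.08 and -0.30 log2 CPM in weeks 2, 6, 8 and 10. ENSECAG00000005525 (SD 2.62) had 9.29 log2 CPM in iPAAG horse 3 and -2.76 in Control horse 11 at week 0. At week 2 these horses had 4.39 and 4.54 log2 CPM, which is no longer apart. The gene was high again at week 6 in Control horses 15 and 16, with 8.04 and 8.87 log2 CPM, against 3.11 and 3.06 in the same horses at week 2.

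ENSECAG00000031983 (SD 2.47) also had 0 reads in horse 11 at week 0 and 3.13, 2.96, 2.35 and 3.23 log2 CPM there in weeks 2, 6, 8 and 10. No other used library had 0 reads for a member. The shares of variance between horses were 32.9%, 10.9% and 7.20% for these 3 members, and the adjusted p-values of the horse test were 0.0505, 0.347 and 0.439 (limma). ENSECAG00000017938 was close to the threshold: it was called in 13 of the alternative fits, with an adjusted p of 0.000681 under voom weights, and its share was 17.8% without Control horse 15 (adjusted p 0.265). ENSECAG00000005525 was called with voom weights (adjusted p 0.0435, limma). ENSECAG00000031983 had a share of 42.3% when week 2 was left out (adjusted p 0.0511, limma).

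Whether the order of horses before surgery carried over was tested by the correlation, across 15 horses, of the week 0 value with the mean deviation from the week means in weeks 2 to 10. A two-sided permutation test with 100000 resamples was run for every gene and adjusted by Benjamini-Hochberg over 15838 genes. It called 4 of the 80 members, while 0.474% of all genes were called (75 genes). Pearson's r was positive for 66 of the 80 members, or 82.5%, and for 67.3% of all genes. Its median was 0.37 over the members and 0.14 over all genes. The week 0 values in this test are those whose SD chose the members. The contrast between members and all genes is therefore a description. With Spearman's rho in place of r, 2 members were called, and 0.069% of all genes. The 2 members were ENSECAG00000011673 and ENSECAG00000037980, of which the first was among the 4. With week 2 alone 0 were called, where no gene of the table was called and the week 2 values were single samples.

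The 4 called members were ENSECAG00000034971, ENSECAG00000023139, ENSECAG00000033152 and ENSECAG00000011673. Each had an adjusted p of 0.0167 by the permutation test, from a raw p of 1e-05, the smallest that 100000 resamples can give. With Spearman's rho over the 15 horses, the adjusted p was 0.0841 for ENSECAG00000034971, 0.111 for ENSECAG00000023139 and 0.175 for ENSECAG00000033152 (permutation test), so these 3 calls did not hold. For ENSECAG00000034971 the horses fell into separate sets, so r is given within the 13 horses other than 2 and 9, where it was 0.89 (permutation p 0.00029). For ENSECAG00000033152, r was 0.53 within the 11 horses outside the high set (permutation p 0.097), so the relation over all horses rests on that set. For ENSECAG00000023139, r was 0.87 within the 14 horses other than horse 2 (permutation p 0.00015).

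For ENSECAG00000011673, r was 0.90 and rho was 0.94 (permutation p 1e-05 each; adjusted p 0.0167 and 0.0317), and r was 0.93 without horses 3 and 8, the farthest from the median. For ENSECAG00000037980, r was 0.87 (permutation p 0.00024, adjusted p 0.05001, just above the threshold) and rho was 0.95 (permutation p 1e-05, adjusted p 0.0317). Its r was 0.95 without horses 1 and 11. For ENSECAG00000048857, r was 0.53 (permutation p 0.0438, adjusted p 0.455) and rho was 0.59 (permutation p 0.0242, adjusted p 0.452), and r was 0.29 without horses 9 and 10.

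The horse that stood farthest out before surgery often stayed on its side but seldom stayed farthest. For 61 of the 80 members the horse farthest from the week 0 median was on the same side in the mean of weeks 2 to 10, against 56.3% of the 6223 genes that met every criterion except the SD. The median distance was 2.82 log2 units at week 0 and 0.43 in the same direction later, against 0.69 and 0.03 in those genes. The farthest horse was picked by the week 0 values that chose the members, and the later value is a mean over libraries. A smaller later distance is thus built in, and nothing is read from it. The horse farthest at week 0 was again the farthest for 12 members, or 15%, against 5.38% of those genes. Of the 30 members with horse 11 farthest, 23 kept the side and 4 kept horse 11 farthest, with a median later distance of 0.46 log2 units. Of the 24 members with horse 13 farthest, 18 kept the side and 1 kept horse 13 farthest, with a median later distance of 0.25. Of the 6 members with horse 2 farthest, 6 kept the side and 4 kept horse 2 farthest, with a median later distance of 2.33. These are descriptions without a test.

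Most members moved in groups from library to library. Grouping by the correlation of deviations from the arm and week means over the 55 used libraries of weeks 2 to 10 (average linkage, groups joined up to a distance of 0.6, where distance is 1 minus r) placed 51 members in 5 groups of at least 5 and left 29 in smaller groups. The largest group held 23 members, with a median r between pairs of 0.57 in those libraries and of 0.65 at week 0. Its members were lowest at week 0 in horse 11 for 18 of 23, and their week 0 values had a median r of -0.66 with library spread. The second group held 12 members, with a median r of 0.58 later and 0.85 at week 0, and was lowest in horse 13 for 10 of 12. Its median r with library spread was -0.18. The points share library and depth, so these correlations are descriptions.

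The low points of the groups moved between horses. The median deviation of the 23 members from their own means was -2.50 log2 units in Control horse 11 at week 0, -1.12 in iPAAG horse 7 at week 2, -2.67 in Control horse 9 at week 4, -0.87 in horse 11 at week 6 and -1.13 in Control horse 16 at week 8. Horse 16 was the highest horse of this group at week 0, at 1.19. The median deviation of the 12 members was lowest in Control horse 13 at week 0, at -2.22, and in Control horse 9 at week 4, at -2.35. The horse test called 3 of the 23 and 3 of the 12, while 10.5% of all genes were called. Nothing is read from these small counts. None of the 6 members with the smallest p in the horse test was in a group of at least 5.

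**Figure D4:**
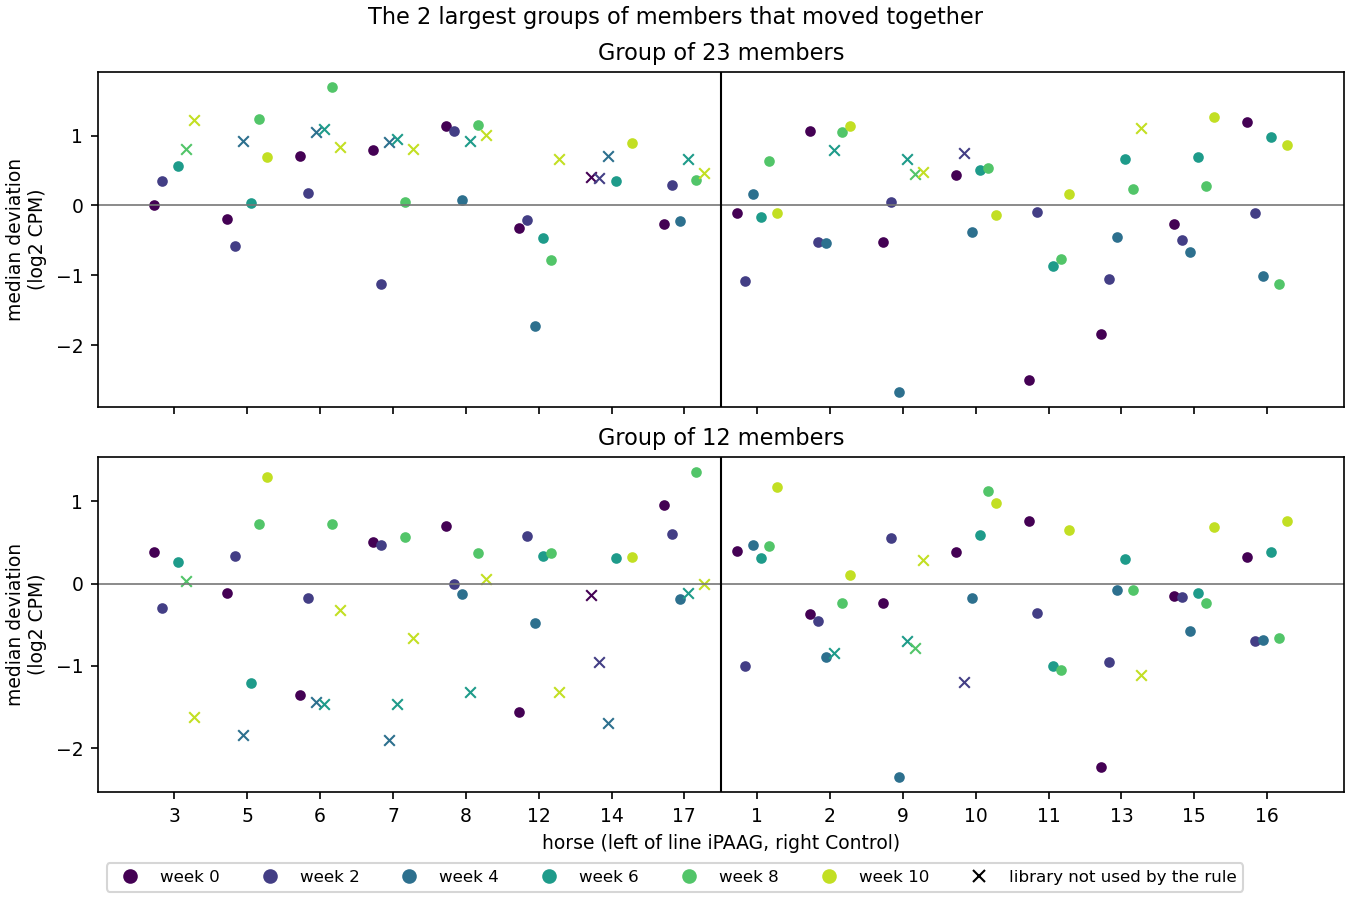
The median over a group's members of log2 CPM minus the gene's mean over used libraries is plotted for each library by horse, for the groups of 23 and of 12 members, with iPAAG horses left of the line and Control horses right of it; color gives the week and crosses mark libraries not used by the rule. Low points such as horse 11 at week 0 (-2.50, upper panel), horse 13 at week 0 (-2.22, lower panel) and horse 9 at week 4 (-2.67 and -2.35) lie apart from the other weeks of the same horse.

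The rule pooled the arms, so differences between them were tested in all 93 libraries, with a limma fit of the 12 means of arm and week and horse as a random block. At week 0 the iPAAG minus Control differences were -1.10 to 1.97 log2 units, with a median of 0.35, and 0 of the 80 members and 0% of all genes were called. At an unadjusted p below 0.05, 11 members (13.75%) and 3.67% of all genes passed. The members were chosen by the spread of these same week 0 values, so nothing is read from that count. The difference in change from week 2 to the average of the later weeks was -1.95 to 1.59 log2 units, with a median of -0.15 over the members and -0.02 over all genes. For it, 0 members and 0% of all genes were called by limma, and 12 members (15%) and 23.8% of all genes passed unadjusted.

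By single week, 3 members were called at week 4, where 22.9% of all genes were, and all 3 were lower in iPAAG, as were 20.5% of all genes. The share of members is below that of the table. The random block used 1 correlation of 0.0391 for all genes, while the members were chosen to differ between horses. Their median SE at week 4 was 0.69 log2 units, against 0.56 over all genes. The part of this in the lower share was not tested. With horse as fixed terms in place of the random block, 10 members and 27.25% of all genes were called. At weeks 6, 8 and 10, 0 members and 0% of all genes were called by limma, and 12, 0 and 19 members (15%, 0% and 23.75%) passed unadjusted, against 16.1%, 0.732% and 26.4% of all genes. With limma's voom weights the counts were also 0 for these contrasts (0% of all genes) and 2 at week 4 (14.97%). Without horse 14, the counts were 8 for weeks 4 to 10, 5 at week 6 and 15 at week 10, where 18.3%, 7.501% and 30.8% of all genes were called. Without horse 9, the count was 2 at week 6, where 0.379% of all genes were called.

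ENSECAG00000013486 had the largest of the 3 differences. At week 4 the 7 iPAAG libraries had a lowest value of 5.41, a median of 7.22 and a highest value of 9.73 log2 CPM, against 8.61, 9.41 and 10.3 in the 7 Control libraries. At week 2 the lowest, median and highest of 8 were 8.92, 9.88 and 11.1 log2 CPM in iPAAG and 7.61, 9.54 and 10.6 in Control. The difference in change was -2.52 ± 0.83 log2 units (SE; adjusted p 0.0274, limma). The 4 iPAAG libraries of low spread at week 4 had 5.41 to 7.22 log2 CPM and the 3 used ones 8.84 to 9.73, so the 3 used iPAAG libraries overlapped with Control. With used libraries alone the difference was -0.67 log2 units (adjusted p 0.855, limma), and after quantile normalisation it was -0.98 (adjusted p 0.133, limma).

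ENSECAG00000014267 averaged 3.00 ± 1.41 log2 CPM in iPAAG and 4.80 ± 0.47 in Control at week 4 (SD, n = 7 libraries each). At week 2 it averaged 4.25 ± 0.40 in iPAAG and 4.18 ± 0.78 in Control (SD, n = 8 libraries each). The difference in change was -1.87 ± 0.64 log2 units (SE; adjusted p 0.0304, limma). The 4 iPAAG libraries of low spread had 1.52 to 2.25 log2 CPM at week 4 and the 3 used ones 4.42 to 4.57. With used libraries alone the difference was -0.22 log2 units (adjusted p 0.954, limma). It was -4.42 after quantile normalisation (adjusted p 0.0203, limma) and -1.32 with voom weights (adjusted p 0.156, limma).

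ENSECAG00000016938, which lies beyond the 2 per direction that were to be named, averaged 5.25 ± 0.92 log2 CPM in iPAAG and 6.70 ± 0.89 in Control at week 4 (SD, n = 7 libraries each). At week 2 it averaged 6.00 ± 0.60 in iPAAG and 5.69 ± 0.49 in Control (SD, n = 8 libraries each). The difference in change was -1.77 ± 0.61 log2 units (SE; adjusted p 0.0319, limma). It was -0.97 with used libraries alone (adjusted p 0.784, limma) and -1.82 with voom weights (adjusted p 0.05001, limma). With library spread as a covariate none of the 3 was called, with adjusted p-values of 0.0559 for ENSECAG00000013486, 0.0798 for ENSECAG00000014267 and 0.0752 for ENSECAG00000016938 (limma). The week 4 count was 0 with used libraries alone (0.0126% of all genes) and with library spread as a covariate (14.0%). It was also 0 without any one of the iPAAG horses 5, 6 and 7 or the Control horse 10 (0% each). It was 13, 11, 10 and 6 without horses 12, 8, 9 and 17, where 35.8%, 30.3%, 26.9% and 31.4% of all genes were called.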

How the data were processed

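Cells were pelleted from the fluid, and libraries were made with a stranded kit for small amounts of total RNA, per the labels' protocols. The authors deposited 1 table of log2 CPM values, normalised by voom per its name, with 15838 genes and 93 libraries. STAR 2.7.10b, the genome build EquCab3.0 and limma 3.62.2 are named in the submitters' processing notes. For read counting, use of strand and the annotation release, nothing is given in the sources used here, so genes that overlap or have near-identical copies are uncertain. On the scale of each library's smallest value, 100.0% of the deposited log2 values were whole reads plus 0.5 within 0.05 reads, which gave the reads per library. A change of a gene with few reads is understated by the added 0.5. Counting error alone covers PCR-amplified reads, not molecules.

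Arm, horse and week came from the titles. The horse number marks the same animal at each week, so horse entered as a block (consensus correlation 0.0391). Each horse gives 1 library per group, and p-values of the arm tests rest on the spread between horses and their visits. The horse test sets the differences between horses against the spread between visits of the same horse. The carry-over test permutes the horses. Tests used limma 3.58.1 in R 4.3.3 and Python 3.11.15 with numpy 2.4.6, and were tested on simulated data. Variances were moderated with a trend. The horse test had 14 and 31 degrees of freedom before moderation. Alternatives were other library sets, scalings, filters, weights and blocks, and each horse left out.

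The members, lists and tests were chosen with earlier results of these data known. Named were the 4 members of highest SD, the 6 of smallest and 2 of largest p in the horse test, 2 genes on each side of the limit, and up to 2 per direction in an arm contrast. Marker lists could not be tested without symbols.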

Additional observations from a re-analysis of the deposited data

Results flagged for a closer look

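Over the named members, 56 groups of 4 to 10 samples were examined for a sample far from the others, and 8 were marked, 6 of them in week 0 values. Chance alone marks about 1 in 20 groups, but the members were chosen by their week 0 spread, so that rate does not apply to the week 0 groups. The criterion is the gap to the nearest other sample relative to the whole range of the group.

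In Control horse 11 at week 0, ENSECAG00000017938 had -5.09 log2 CPM, against 1.88 to 5.25 in the other Control horses, and ENSECAG00000031983 had -5.09, against 1.55 to 4.56. Both had 0 reads there. Over the used libraries of weeks 2 to 10, ENSECAG00000031983 also had its lowest Control horse mean in horse 9. It was 1.48 log2 CPM, against 2.69 to 3.73 in the other Control horses. That mean covers weeks 2 and 4 alone, at 3.54 and -0.57 log2 CPM. The libraries of horse 9 in weeks 6, 8 and 10, not used by the rule, had 5.5, 5.72 and 5.02 log2 CPM. ENSECAG00000005525 had 9.29 log2 CPM in iPAAG horse 3 at week 0, against 2.52 to 5.21 in the other iPAAG horses. ENSECAG00000034971 had -4.27 log2 CPM in Control horse 2 at week 0, against 1.11 to 4.80 in the other Control horses.

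ENSECAG00000023139 was marked both before and after surgery in Control horse 2. It had 0.12 log2 CPM there at week 0, against 3.44 to 6.30. Its mean over the used libraries of weeks 2 to 10 was 0.33 there, against 3.51 to 6.10. ENSECAG00000014267 had 2.50 log2 CPM in Control horse 13 at week 0, against 4.38 to 5.44.

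The difference between the arms in the change from week 2 to week 4 passed the limma test for 3 members. It was -2.52 log2 units for ENSECAG00000013486 (adjusted p 0.0274), -1.87 for ENSECAG00000014267 (adjusted p 0.0304) and -1.77 for ENSECAG00000016938 (adjusted p 0.0319). In each the 4 iPAAG libraries of low spread were the lowest of their arm at week 4, and with used libraries alone, or with library spread as a covariate, none of the 3 was called.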

How the results depend on the processing

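The count of members past the horse test was 25 and ranged from 17 to 35 over other libraries, weeks, scalings, filters, weights and member lists drawn from the data, and from 18 to 30 when each horse was left out in turn. It was 15 for the 39 genes chosen without the week 0 libraries of horses 11 and 13, an alternative added after seeing the data. Of the 25, 11 were called under every alternative fit, horses left out included. The same count was not made over all genes. The count past the carry-over test was 4 (0.474% of all genes). With each horse left out it was 3 to 5, where 0.177% to 0.499% of all genes were called. It was 2 with Spearman's rho (0.069% of all genes) and 0 with week 2 alone (0%). No member was called between the arms at week 0 or in the change to week 8 under any alternative, by limma.

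For the change to weeks 4 to 10 the count was 2 with library spread as a covariate, where 14.9% of all genes were called. It was 0 to 8 with each horse left out, the highest without horse 14 (18.3% of all genes). At week 4 it was 3, and 0 with used libraries alone (0.0126% of all genes) or with spread as a covariate (14.0%). It was 5 with genes averaging at least 1 log2 CPM, 6 after median centring, and 16 after quantile normalisation. In these 3 fits 33.4%, 22.8% and 31.2% of all genes were called. With the replicate block, the pairing by horse, left out it was 3 (19.8% of all genes), and with the block as fixed terms it was 10 (27.25%). With each horse left out it was 0 to 13, the highest without horse 12 (35.8%). At week 6 it was 5 with spread as a covariate (16.8% of all genes) and 1 with used libraries alone (0.909%). It was 0 to 5 with each horse left out, the highest without horse 14 (7.501%). At week 10 it was 0 to 15 with each horse left out, the highest without horse 14 (30.8%). The cause of these changes was not tested. Taking 300 genes in place of 150 left the same 80 members, and the horse test could not be fitted without the horse terms. No named difference between the arms changed sign. Depth limits the lowest values: 2 members had 0 reads in 1 used library, and the median reads of a member over used libraries were at least 126.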

Other observations

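The 6 members with the smallest p in the horse test were partly alike in which horses were high, over the 55 used libraries of weeks 2 to 10 after the arm and week means were removed. ENSECAG00000033152 and ENSECAG00000011673 had an r of 0.63 there and of 0.58 over the 15 horses at week 0, and horse 2 was highest in both. ENSECAG00000034971 had an r of 0.62 with ENSECAG00000037980 and of 0.56 with ENSECAG00000023139, and of -0.44 with ENSECAG00000033152. ENSECAG00000048857 had an r of -0.34 to -0.06 with the other 5. The points share horses and libraries, and these values have no test.

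The 3 smaller groups of members that moved together held 6, 5 and 5 members. The group of 6 was lowest in Control horse 11 at week 0, with a median deviation of -3.04 log2 units, and highest in iPAAG horse 3, at 1.24. The first group of 5 was highest in Control horse 13 at week 0, at 1.55, and again at week 2, at 1.66, and lowest in horse 11 at week 0, at -1.68. The other group of 5 was lowest in horse 13, at -1.73, and highest in horse 11, at 1.61, at week 0. In that group the highest horse was iPAAG horse 12 at weeks 2 and 8, at 1.36 and 1.39, after -1.56 at week 0. The highest was horse 13 at week 4, at 1.15, iPAAG horse 14 at week 6, at 1.93, and horse 11 at week 10, at 1.54.

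The 23 libraries of low spread shifted single members in either direction. Relative to the mean of the same horse's used libraries, 41 of the 80 members were lower there and 39 higher in the median, over a middle range of -0.88 to 0.91 log2 units. Of the 6223 genes that met every criterion except the SD, 5217 were lower.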
